A study of Mus musculus with 4 samples.

Results

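The β-cells of mouse islets exposed for 6 h to IL-1β were compared, gene by gene, with those exposed to IL-1β plus IFN-γ, so that each effect of IL-1β could be described as boosted, left or dampened once IFN-γ was added. Transcripts were counted in single cells captured in droplets, where a barcode names the cell and a unique molecular identifier (UMI) names the molecule, and counts below are of UMIs. All 4 libraries came from islets of C57BL/6 mice (C57BL6/J in the study's methods), taken from adult males and pooled over several animals before the islets were divided, and were left untreated or exposed ex vivo for 6 h to IL-1β, to IFN-γ or to both. Each condition was a single library. Differences below are therefore unreplicated, and none was tested. Intervals printed here are 95% exact intervals (Poisson for a level, conditional binomial for a ratio of levels, binomial for a share), and they cover counting error only.

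A barcode was kept when it had between 200 and 4000 genes detected and no more than 12% of UMIs from mitochondrial genes, and a kept cell was called a β-cell when *Ins1* and *Ins2* together held at least 5% of its UMIs while *Gcg*, *Sst* and *Ppy* each held less than 1%. This left 1123 β-cells with IL-1β and 1255 with both cytokines, or 2378 of the 3828 kept cells of these libraries and of 7471 kept cells (12571 barcodes) in the whole series. The untreated library held 1170 β-cells and the IFN-γ library 1256. The chosen cells were selected on insulin, which is therefore no result. Over the β-cells, *Ins1* and *Ins2* held 22.3% of all UMIs with IL-1β and 33.7% with both, against 42.3% without treatment and 28.8% with IFN-γ. Few cells lay near the limit, with 21 kept cells at 4% to 5% insulin and 16 at 5% to 6% with IL-1β, and 8 and 7 with both. Among the other β-cell markers *Ucn3* was at 322, 44.8, 218 and 62.4 CPM, in the order untreated, IL-1β alone, IFN-γ alone, combination, and it was the 1 of 5 that was higher with both than with IL-1β. The 5 β-cell markers outside the hormone genes summed to 2757, 1156, 1951 and 608 CPM in that order, of which *G6pc2* alone made 813 with IL-1β and 295 with both. The 4 such α-cell markers summed to 9.62, 13.5, 10.8 and 10.99.

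The β-cells of the IL-1β library were the shallowest, with a median of 8327 UMIs per cell against 12209 with both, 11101 with IFN-γ and 17220.5 without treatment. The upper limit on detected genes removed 146 barcodes with IL-1β, 222 with both, 345 with IFN-γ and 843 without treatment. The libraries with IL-1β and with both shared 3 barcodes, 2 of them among kept cells. Because insulin and the other hormones took such different shares of the UMIs, a level is given in non-hormone CPM, a gene's summed UMIs over all β-cells of a library per 1000000 UMIs of genes other than the 7 hormone genes. These totals were 6823382 UMIs with IL-1β and 9553193 with both. Whenever 4 levels are printed in a row, they follow the order given for *Ucn3*. A fold without further words is the level with both cytokines against that with IL-1β, and the range after it is its 95% interval. Differences in RNA content per cell are not visible on this scale.

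IL-1β binds a receptor on β-cells that acts through MyD88 and IRAK kinases to free NF-κB from its inhibitors, and NF-κB then turns on genes for chemokines, adhesion molecules and inducible nitric oxide synthase. IFN-γ binds a different receptor, whose JAK kinases signal to factors that bind GAS elements in the nucleus. The interferon regulatory factors induced in this way bind interferon-stimulated response elements in antiviral and antigen presentation genes. In β-cells, inducible nitric oxide synthase makes the nitric oxide that follows exposure to IL-1β.

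With IFN-γ added to IL-1β, 628 of 8395 genes tested (7.48%) were at least 1.5-fold higher and 933 (11.1%) were at least 1.5-fold lower (18.6% in either direction), where tested names a gene whose mean level over these libraries reached 10 CPM and not a statistical test. A tested gene under 8 CPM with IL-1β was bound to be at least 1.5-fold higher, which held for 77 genes (0.917%). In the same way, a tested gene under 8 CPM with both was bound to be at least 1.5-fold lower. Genes fixed as lower were not counted. The rises were the larger ones, with 102 genes at least 4-fold higher and 1 at least 4-fold lower. The median gene sat at a log2 ratio of -0.11 on the non-hormone scale and of -0.31 when all UMIs were the total. Relative to the median, 858 genes were higher and 595 lower, and with all UMIs as the total the counts were 316 and 1743, so the balance of the small changes depended on the scale. The genes named below are those of a fixed rule (the extremes of each class and of each gene list). Others, named as further examples, were chosen after their values were seen.

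**Figure D1:**
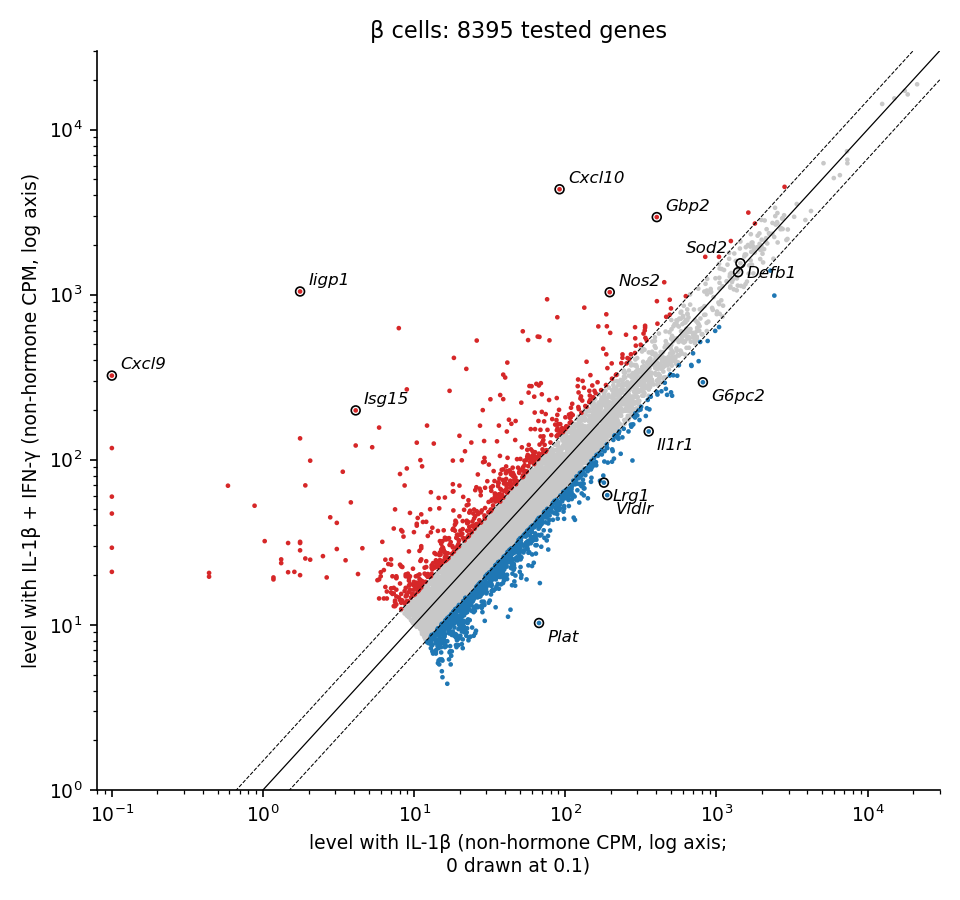
Level of each of the 8395 tested genes in β-cells with IL-1β (horizontal axis) and with IL-1β and IFN-γ (vertical axis), in non-hormone CPM on log axes, with dashed lines at 1.5-fold. Red points (628) lie at least 1.5-fold above the diagonal and blue points (933) at least 1.5-fold below it. The genes farthest from the diagonal are above it, whereas *Defb1* and *Sod2* lie on it.

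IL-1β alone set at least 2-fold higher levels than no treatment for 668 genes, 7.96% of those tested. IFN-γ on top boosted 149 of them, left 400 within 1.5-fold and dampened 119. The balance depended on the processing, with 147 boosted and 446 dampened of 1408 IL-1β-raised genes when all UMIs were the total, 140 and 145 in thinned cells, and 189 and 203 with a minimum mean of 3 CPM. On the main scale the shares were 22.3%, 59.9% and 17.8%, so IL-1β-raised genes were past the limit more often in both directions than all tested genes (7.48% higher and 11.1% lower). Both comparisons use the IL-1β library, so the classes and the ratios are not independent. Their split differed with the level IFN-γ gave alone. Of 250 IL-1β-raised genes that IFN-γ alone raised at least 1.5-fold over untreated cells, 108 were boosted and 29 dampened, and of the other 418 genes 41 were boosted and 90 dampened.

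**Figure D2:**
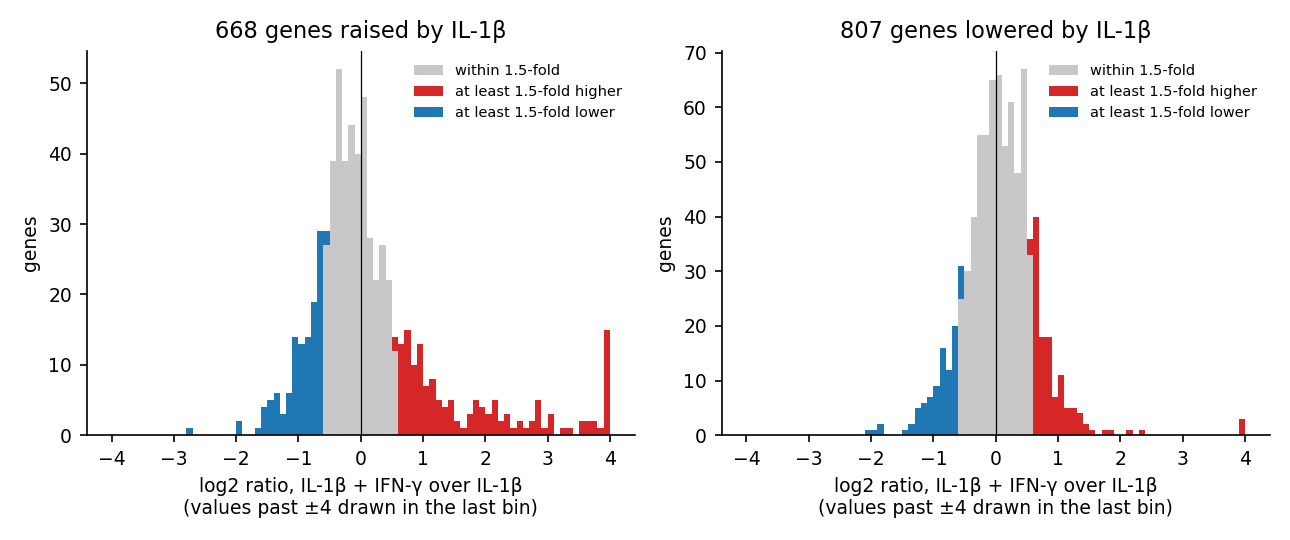
Log2 ratio of the level with both cytokines to the level with IL-1β for the 668 genes that IL-1β raised at least 2-fold (left) and the 807 that it lowered at least 2-fold (right), in bins of the horizontal axis with the number of genes on the vertical axis. Most genes of both classes stay within 1.5-fold (gray, 400 and 598), and the raised class has the long tail of boosted genes (red, 149).

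Among boosted genes were many of the NF-κB arm. *Nos2*, which encodes inducible nitric oxide synthase, stood at 0, 197, 3.73 and 1034 CPM and was, with both cytokines against IL-1β, 5.26-fold higher, 4.97 to 5.57. Its level with both lay far above that with each cytokine alone. The remaining genes of nitric oxide, arginine and tetrahydrobiopterin metabolism did not pass the limit on the main scale (the other 7 tested members). That count was near the 81.4% of all tested genes that lay inside the limit. *Gch1*, the first enzyme of tetrahydrobiopterin synthesis, was at 615, 702, 543 and 572. The arginine transporter *Slc7a2* was at 149, 61.6, 150.5 and 41.2, and was past the limit downward with all UMIs as the total, as a mean over cells and at the 20% mitochondrial limit. *Pts* was lower with all UMIs as the total and *Asl* higher in thinned cells. Of 26 tested genes of NF-κB subunits, inhibitors and targets, 13 were higher, 13 were within 1.5-fold and 0 were lower. With all UMIs as the total 9 were higher, and after centring 15, with 0 lower on each scale. Their median log2 ratio was 0.60 against -0.11 for all tested genes, of which 7.48% were higher and 11.1% lower. IL-1β had raised 20 of the 26, and 22.3% of all IL-1β-raised genes were boosted. The filter on the mean had fixed 1 of the 26 as higher, and 12 of the other 25 were higher. *Cd40*, a co-stimulatory receptor, rose farthest in that list (0.481, 69.9, 2.305 and 249, 3.56-fold higher, 3.23 to 3.94). *Icam1*, an adhesion molecule, behaved alike (0.577, 188, 5.38 and 643, 3.42-fold higher, 3.22 to 3.63). The feedback deubiquitinase *Tnfaip3* was also higher (2.405, 112, 6.37 and 187, 1.67-fold higher, 1.53 to 1.82), though not with all UMIs as the total. The inhibitor *Nfkbia* lay just inside the limit (92.4, 669, 76.8 and 1003, log2 ratio 0.58) and past it after centring. The subunit *Rel* (6.54, 24.2, 7.13 and 22.2) and the mitochondrial superoxide dismutase *Sod2* (189.8, 1441, 175 and 1549) stayed at their IL-1β levels.

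Chemokines split 3 ways. *Cxcl10*, a ligand that attracts activated T cells through CXCR3, stood at 4.14, 91.6, 116 and 4346 (47.4-fold higher, 43.8 to 51.4). Its relative *Cxcl9* had 3088 UMIs with both, 26 with IFN-γ and none with IL-1β (0, 0, 2.85 and 323 CPM). With the IL-1β library set to a floor of 3 UMIs, *Cxcl9* was 735-fold higher. *Ccl2*, which attracts monocytes, went from 187 to 760.1 (4.07-fold higher, 3.83 to 4.32), and *Cxcl16*, a transmembrane chemokine, from 85.7 to 163 (1.903-fold higher, 1.73 to 2.097). The neutrophil-attracting *Cxcl1* and *Cxcl2*, in contrast, did not follow. *Cxcl1* was at 0, 367, 2.305 and 241 (1.53-fold lower, 1.44 to 1.62). *Cxcl2* was at 0, 55.98, 0.1098 and 43.3 (1.29-fold lower, 1.12 to 1.49). *Ccl28*, an epithelial chemokine, was 2.01-fold lower, 1.83 to 2.22, at 17.4, 148, 10.5 and 73.5. Thus 4 of 7 tested chemokines were higher, 2 were lower and 1 was within 1.5-fold. Among all tested genes 7.48% were higher and 11.1% lower. IL-1β had raised 6 of the 7, and of all IL-1β-raised genes 22.3% were boosted and 17.8% dampened. The filter on the mean had fixed 1 of the 7 as higher, and of the other 6 genes 3 were higher. *Cxcl1* went inside the limit when ratios were centred on the median or 20% mitochondrial UMIs were allowed, and *Cxcl2* was past it downward in thinned cells, as a mean over cells and with a stricter insulin gate.

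All 9 tested guanylate-binding proteins, IFN-induced GTPases of cell-autonomous immunity, were raised by IL-1β alone. All 9 rose further, with a median log2 ratio of 3.04, where 7.48% of all tested genes and 22.3% of all IL-1β-raised genes were higher. The filter on the mean had fixed the direction of 1 of the 9, and the other 8 were all higher. *Gbp2* was 7.32-fold higher, 7.04 to 7.61, and stood at 2.89, 403, 1253 and 2948 over the 4 libraries. *Gbp5* had 0.385, 78.6, 37.98 and 528 and was 6.73-fold higher, 6.15 to 7.37. *Gbp4* was 12.4-fold higher, 11.3 to 13.5. *Gbp10*, with few UMIs with IL-1β, was 36.7-fold higher, 21.3 to 69.3. The ratio was lowest for *Gbp9*, 5.99-fold higher, 5.28 to 6.83. Several of these genes are near-identical neighbors on chromosomes 3 and 5, such as *Gbp6* and *Gbp10*, and the counting may have split reads between them, so values of single members are uncertain. *Gbp7* was the 1 member whose level with both was not above that with IFN-γ alone (16.5, 52.3, 639.6 and 599.7).

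Promoter sequences were examined for letters that the boosted genes share. Windows of 250 bases before the transcription start, from RefSeq on GRCm38.p6, were matched by symbol to 114 of the 149 boosted genes and to 6659 of the 8395 tested genes. Searched on both strands were the interferon element (GAAA, NN, GAAA), the palindromic GAS pattern (TTC, NNN, GAA) and the κB pattern (GGGA, NN, TTCC), where N is any base. The interferon element was in 14.9% of boosted promoters, 3.47% of those left, 4.26% of the 94 matched dampened genes and 3.199% of the 6659 matched tested genes (3.46% of all 27025 genes in the table). GAS letters were in 14.04%, 10.1%, 9.57% and 6.92% (8.13%), and κB letters in 7.02%, 3.13%, 3.19% and 1.397% (1.36%), in the same order. Of the 71 matched genes that were at least 4-fold higher, 33.8% held the interferon element, whereas 1.76% of the 625 matched genes that were lower without being raised by IL-1β did. A match is a description of letters and not of a binding site. The windows are shown for genes with both interferon element and κB letters (*Cxcl10*, minus strand, chr5:92348890-92349139 and *Gbp5*, plus strand, chr3:142496684-142496933), for an inhibitor and a factor of the IFN-γ arm (*Socs1*, minus strand, chr16:10785537-10785786 and the first of 2 windows of *Irf1*, plus strand, chr11:53769764-53770013), and for a dampened gene (*Lrg1*, minus strand, chr17:56121947-56122196). They are written 5′ to 3′ on the strand of the gene, with each matching run of letters in capitals.
Cxcl10: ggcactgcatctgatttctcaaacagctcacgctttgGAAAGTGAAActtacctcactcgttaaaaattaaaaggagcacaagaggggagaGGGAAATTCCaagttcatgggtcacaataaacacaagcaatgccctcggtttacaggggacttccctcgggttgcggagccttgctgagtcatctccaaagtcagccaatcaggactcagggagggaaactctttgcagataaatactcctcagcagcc
Gbp5: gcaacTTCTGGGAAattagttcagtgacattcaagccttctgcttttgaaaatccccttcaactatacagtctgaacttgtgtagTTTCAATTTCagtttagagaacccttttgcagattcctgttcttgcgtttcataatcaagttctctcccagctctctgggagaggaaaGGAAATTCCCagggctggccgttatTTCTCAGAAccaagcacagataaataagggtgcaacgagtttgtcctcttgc
Socs1: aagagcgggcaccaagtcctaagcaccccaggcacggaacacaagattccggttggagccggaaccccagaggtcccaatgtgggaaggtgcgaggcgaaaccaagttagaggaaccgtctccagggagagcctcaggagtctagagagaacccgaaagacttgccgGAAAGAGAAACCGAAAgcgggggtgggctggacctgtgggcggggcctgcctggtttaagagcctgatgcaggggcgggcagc
Irf1: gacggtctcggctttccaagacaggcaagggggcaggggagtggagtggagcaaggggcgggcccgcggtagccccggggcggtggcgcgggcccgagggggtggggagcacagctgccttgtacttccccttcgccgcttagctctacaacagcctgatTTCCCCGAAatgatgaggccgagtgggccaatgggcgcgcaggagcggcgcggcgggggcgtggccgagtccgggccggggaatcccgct
Lrg1: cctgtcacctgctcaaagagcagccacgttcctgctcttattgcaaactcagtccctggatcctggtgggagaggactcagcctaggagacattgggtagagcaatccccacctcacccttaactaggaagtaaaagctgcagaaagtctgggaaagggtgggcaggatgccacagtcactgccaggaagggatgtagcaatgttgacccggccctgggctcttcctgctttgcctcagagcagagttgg
*Cxcl10* carries the interferon element 213 bases before the start and the κB letters at 159, *Gbp5* carries all 3 patterns, *Socs1* has 2 overlapping interferon elements beginning at 83 and 77, *Irf1* has GAS letters at 90, and the *Lrg1* window has none of the 3. Of the other windows read, those of the higher genes *Gbp2* (interferon element), *Icam1* and *Irf8* (GAS letters) have matches, and those of *Cxcl9*, *Tap1* and *Cd274*, also higher, have none. Among lower genes *Fgb* has GAS letters at 162, while *G6pc2* and *Ccl28* have no match.

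**Figure D3:**
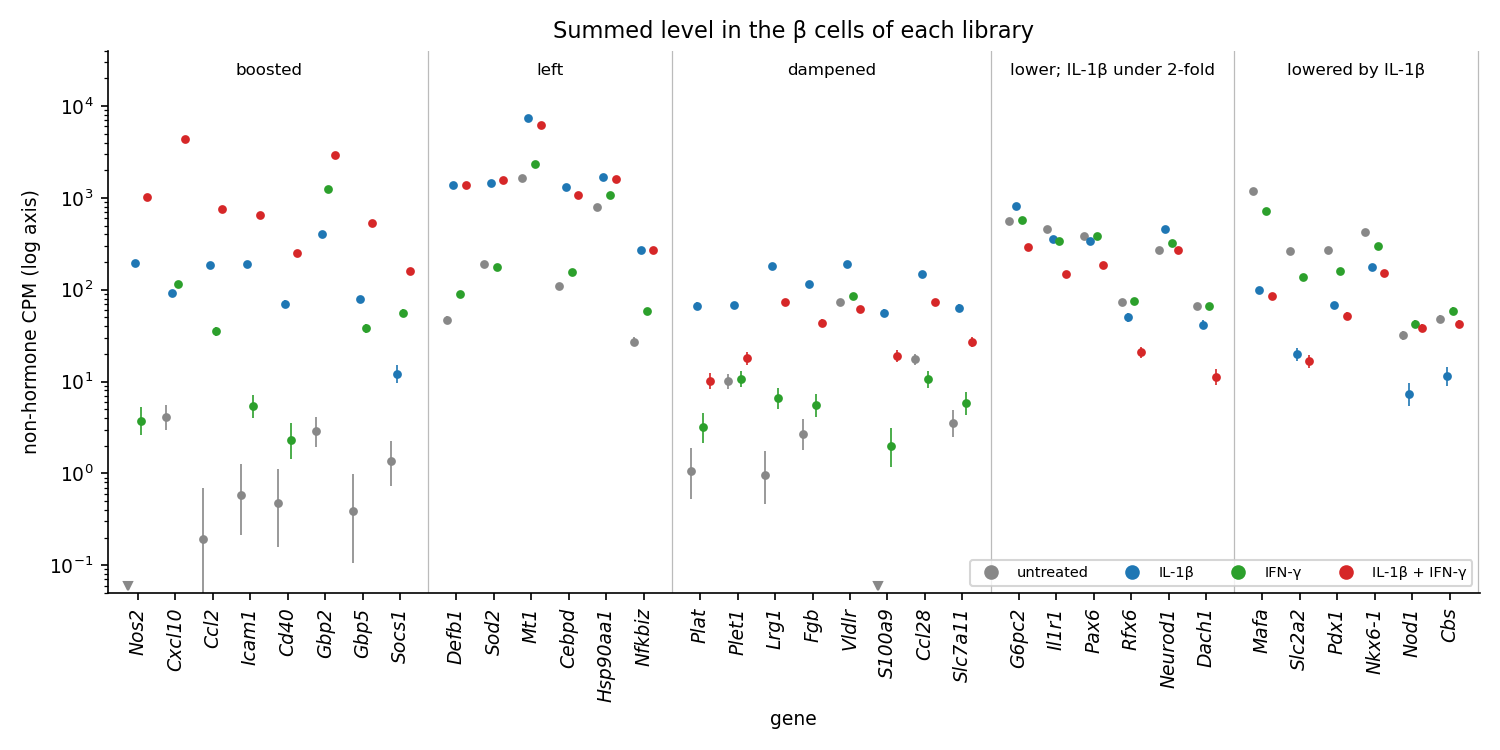
Level of named genes in the β-cells of the 4 libraries, in non-hormone CPM on a log axis, with exact 95% Poisson intervals (bars) and triangles for genes with no UMI. The 8 boosted genes drawn have their highest level with both cytokines (red), the 6 genes left by IFN-γ have red and blue points together, and *Plat*, *Lrg1*, *Fgb* and *Vldlr* have theirs with IL-1β alone (blue).

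In the receptor, JAK-STAT and IRF list 10 of 18 tested genes were higher and 0 lower (8 and 1 with all UMIs as the total). The filter on the mean had fixed 3 of the 18 as higher. Of the other 15 genes 7 were higher, against 7.48% of all tested genes. *Ifngr1*, which binds IFN-γ, went from 37.4 to 26.3, and was past the limit downward with all UMIs as the total, as a mean over cells and in thinned cells. *Ifngr2*, the second chain of the receptor, stayed level at 10.7, 81.6, 7.79 and 82.6 after IL-1β had set it 7.64-fold higher than untreated. *Irf1*, an interferon regulatory factor, had its highest level with both (37.6, 56.7, 313 and 530.4, 9.35-fold higher, 8.43 to 10.4). *Irf8*, a factor best known from myeloid cells, had no UMI with IL-1β and 451 with both (0.481, 0, 23.7 and 47.2). With the IL-1β library set to a floor of 3 UMIs, *Irf8* was 107-fold higher. *Stat3* went from 465 to 734 (1.58-fold higher, 1.51 to 1.65), inside the limit with all UMIs as the total. Among 23 tested feedback inhibitors of cytokine signaling 6 were higher and 1 was lower (5 and 4 with all UMIs as the total), where 7.48% and 11.1% of all tested genes were. *Socs1*, which blocks JAK kinases, was at 1.35, 12.2, 56.4 and 161 (13.2-fold higher, 10.6 to 16.7). *Usp18*, which restrains interferon receptors, was at 14.1, 10.99, 79.8 and 99.4 (9.05-fold higher, 7.15 to 11.6). The RNA-binding protein gene *Zfp36l2* was the 1 that was lower on the main scale (40.98, 50.6, 46.9 and 24.9, 2.03-fold lower, 1.72 to 2.404).

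Immunity-related GTPases are a second family of IFN-induced GTPases, and IL-1β alone had raised 3 of the 9 tested at least 2-fold. Among the raised members, *Iigp1* and *Ifi47* were at only 1.76 CPM with IL-1β, not far above the floor. *Iigp1* had a UMI in 3 of 1123 β-cells with IL-1β and in 2 without treatment. Of 13 listed genes 9 were tested, and 8 were higher, against 7.48% of all tested genes. However, 7 of the 9 were under 8 CPM with IL-1β, so that the filter on the mean had fixed their direction. Of the other 2 genes 1 was higher. A single member, *Irgq*, was lower at 29.6, 34.9, 32.2 and 22.5, a change inside the limit with ratios centred on the median, means over cells or thinned cells. *Iigp1* had 12 UMIs with IL-1β and 9980 with both (0.192, 1.76, 1749.7 and 1045), 594-fold higher, 339.9 to 1150. *Igtp* was at 6.25, 7.91, 858 and 627 (79.2-fold higher, 60.6 to 106). *Irgm1* was at 22.99, 25.9, 762 and 527 (20.3-fold higher, 17.5 to 23.7), and *Irgm2* was 26.7-fold higher, 19.5 to 37.5. For these 4 genes the level with both was below that with IFN-γ alone, the reverse of *Ifi47* (0.289, 1.76, 67.8 and 135). *F830016B08Rik*, *Gm4841* and *Gm4951*, further members of the family, had no UMI with IL-1β and 1124, 571 and 280 with both. Family members are similar in sequence, so the split of counts among them is uncertain.

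Antiviral genes were nearly all higher. Of 37 tested effectors and sensors 36 were higher and none was lower, against 7.48% and 11.1% of all tested genes. The filter had fixed the direction of 10 of the 37, and of the other 27 genes 26 were higher. *Isg15*, a ubiquitin-like modifier, went through 1.44, 4.104, 39.8 and 199 (48.5-fold higher, 33.4 to 73.2). *Ifit2*, which binds viral RNA, was at 0.192, 2.05, 24.7 and 98.7 (48.1-fold higher, 28.5 to 88.3), and the nucleic acid sensor *Zbp1* at 0.385, 8.06, 70.8 and 81.96 (10.2-fold higher, 7.73 to 13.6). *Rsad2*, which makes a chain-terminating nucleotide, was at 7.41, 17.1, 72 and 261 (15.2-fold higher, 12.7 to 18.5). *Isg15*, *Ifit2*, *Rsad2* and *Zbp1* were each higher with both cytokines than with IFN-γ alone. The exception was the exonuclease gene *Isg20*, which IL-1β alone had raised and which lay within 1.5-fold (259.8, 669.6, 367 and 870.2).

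Antigen presentation genes followed, with 15 of 22 tested members of MHC class I, peptide loading and the immunoproteasome higher and none lower. With all UMIs as the total 12 of the 22 were higher, and after centring 16. The shares of all tested genes were 7.48% higher and 11.1% lower. *Tap1*, which carries peptides into the endoplasmic reticulum, was at 9.04, 22.1, 247 and 355 (16.05-fold higher, 13.6 to 19.01). The immunoproteasome subunits *Psmb9* (35.6, 41.3, 331 and 388, 9.38-fold higher, 8.31 to 10.6) and *Psmb8* (73.5, 165, 508 and 642, 3.88-fold higher, 3.64 to 4.14) and the light chain *B2m* (387, 451, 681 and 1189, 2.63-fold higher, 2.53 to 2.74) rose as well. The chaperones *Calr* and *Pdia3* did not pass the limit, with *Calr* at 1982, 2126, 2111 and 2198 and *Pdia3* at 1040, 1106, 1159 and 857. *Cd274*, which encodes the checkpoint ligand PD-L1, was at 8.75, 18.3, 367 and 414 (22.6-fold higher, 18.9 to 27.2), close to its level with IFN-γ alone. *Lgals9*, a galectin with inhibitory receptors on T cells, was at 1.06, 2.78, 18.9 and 44.8 (16.1-fold higher, 10.2 to 26.99), a direction that the filter on the mean had fixed. *Nectin2*, an adhesion molecule, was at 12.4, 22.9, 14.2 and 41.9 (1.83-fold higher, 1.52 to 2.22). *Ceacam1*, another adhesion molecule, moved the other way (5.39, 132, 8.12 and 66.99, 1.98-fold lower, 1.79 to 2.19), and *Cd47* stayed at 590.3 to 551. The interferon-induced death ligand *Tnfsf10* was at 6.64, 23.9, 188 and 127 (5.32-fold higher, 4.51 to 6.304).

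**Figure D4:**
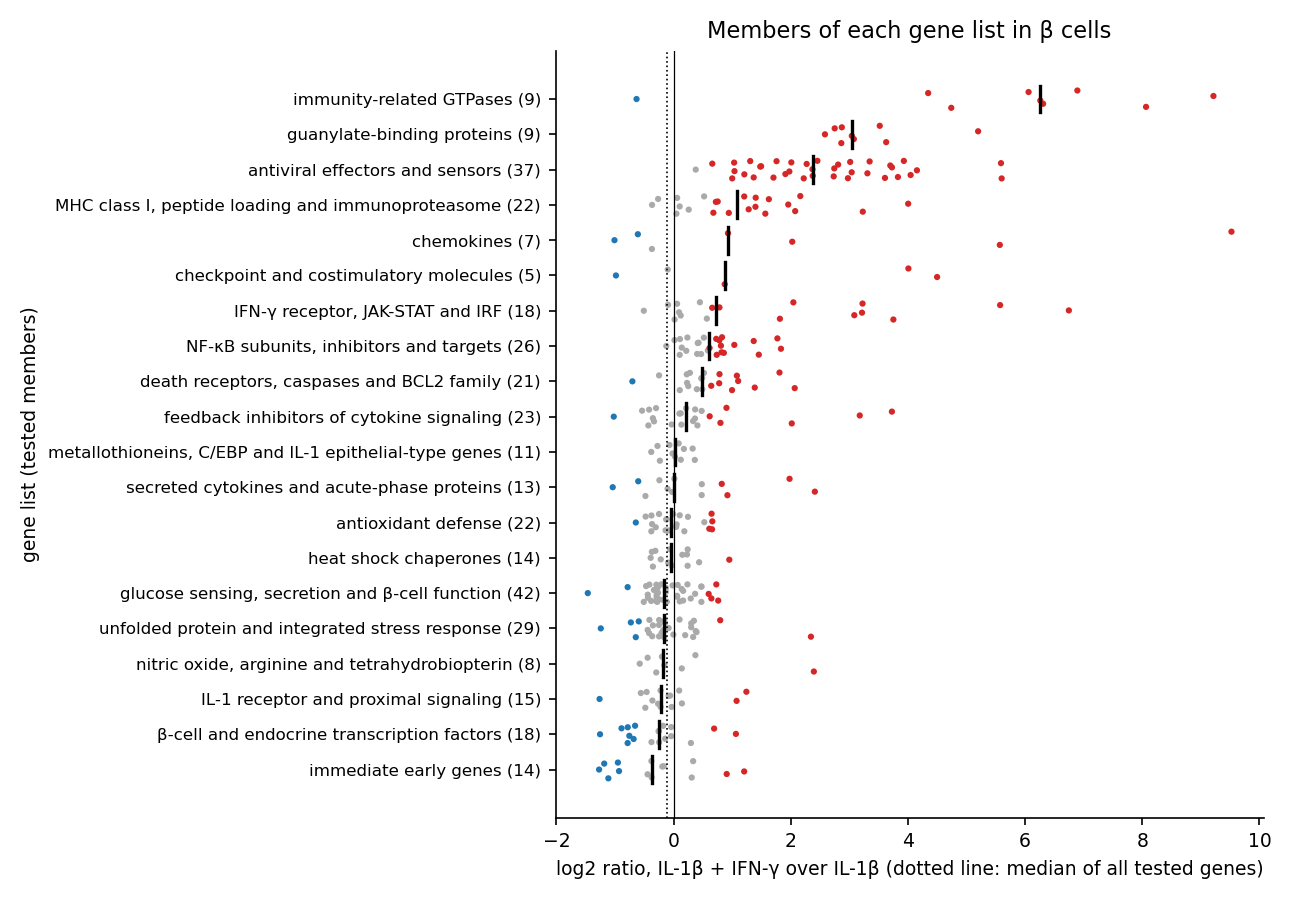
Log2 ratio of the level with both cytokines to the level with IL-1β (horizontal axis) for each tested member of the gene lists with at least 5 tested members (vertical axis), with list medians as black bars and members past 1.5-fold in red (higher) or blue (lower). Immunity-related GTPases, guanylate-binding proteins and antiviral genes lie mostly to the right (the filter on the mean fixed the direction of 7, 1 and 10 of their members). The list of metallothioneins, C/EBP and IL-1 epithelial-type genes and that of heat shock chaperones center near 0.

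The most numerous answer to IL-1β was left alone by IFN-γ. Among the 5 IL-1β-raised genes of highest level that stayed within 1.5-fold, *Defb1*, a β-defensin, was at 46.9, 1390.2, 89.3 and 1368 and its ratio was -0.02 on the log2 scale. The zinc-binding metallothionein *Mt1* was at 1635, 7347, 2333 and 6247 (log2 ratio -0.23), the poly(A)-binding protein gene *Pabpc1* at 449.6, 2035, 582 and 1566 (-0.38), the chaperone *Hsp90aa1* at 804, 1683, 1086 and 1611 (-0.06), and the C/EBP family factor *Cebpd* at 111, 1302, 155 and 1076 (-0.27). A further list held metallothioneins, C/EBP factors and epithelial-type genes linked to IL-1. None of its 11 tested genes passed the limit in either direction, where 81.4% of all tested genes lay inside it. *Cebpb* did pass it downward with all UMIs as the total. IL-1β had raised 7 of these 11 at least 2-fold. *Sod2* (log2 ratio 0.10) and the atypical NF-κB inhibitor *Nfkbiz* (27.2, 269.7, 57.95 and 273, 0.02) were NF-κB targets of the same kind. Of 14 heat shock chaperone genes tested 13 were within the limit, not far from the share of all tested genes, and *Hspa8*, the constitutive HSC70, was higher (1317, 1624, 1329.9 and 3139.7, 1.93-fold higher, 1.89 to 1.98). β-cells with at least 10 *Hspa1a* UMIs per 10000 were 8.73% of the IL-1β library and 6.22% of that with both. Without them *Hspa1a*, *Hspa1b* and *Dnajb1* also passed the limit upward, but those cells were chosen by *Hspa1a* itself, so nothing is read from it.

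The most dampened genes were of mixed function. Of those below, *Spry2*, *Bdnf* and *Fut4* were under 8 CPM with both, so the filter on the mean had fixed their direction. *Plat*, tissue plasminogen activator, had the smallest ratio of all tested genes, at 1.06, 66.98, 3.18 and 10.3 (6.53-fold lower, 5.24 to 8.21). *Plet1*, a surface protein of epithelia, was at 10.1, 67.9, 10.8 and 17.9 (3.79-fold lower, 3.17 to 4.54), and *Vldlr*, a lipoprotein receptor, at 73.9, 189, 85.4 and 61.03 (3.103-fold lower, 2.81 to 3.43). For *Vldlr* the level with both cytokines was below that of untreated β-cells, so the IL-1β rise was gone. *Spry2*, an inhibitor of receptor tyrosine kinase signaling, was at 5.58, 16.6, 7.902 and 4.396 (3.77-fold lower, 2.62 to 5.504), the neurotrophin *Bdnf* at 2.12, 17.4, 1.32 and 5.76 (3.03-fold lower, 2.18 to 4.25), and the fucosyltransferase *Fut4* at 3.66, 20.96, 3.84 and 7.22 (2.902-fold lower, 2.16 to 3.93). *S100a9*, a subunit of calprotectin, went from 0 UMIs untreated to 378 with IL-1β and 180 with both (0, 55.4, 1.98 and 18.8 CPM, 2.94-fold lower, 2.46 to 3.53), and *Olfm1* was at 9.33, 22.9, 14.4 and 8.06 (2.84-fold lower, 2.15 to 3.78).

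Among 13 tested secreted cytokine and acute-phase genes, all raised by IL-1β, 4 were higher and 2 lower with both (6 and 1 after centring), where 22.3% and 17.8% of all IL-1β-raised genes were. *Saa1*, serum amyloid A1, was at 0, 26.2, 0 and 12.8 (2.05-fold lower, 1.62 to 2.61), and *Steap4*, a metalloreductase, was at 0.866, 492, 2.74 and 324 (1.52-fold lower, 1.45 to 1.596), a change lost when ratios were centred on the median or cells were thinned. *Saa3* stayed at 68.9 to 64.2 and the siderophore-binding *Lcn2* at 745 to 629.6, whereas the complement protease gene *C1ra* rose from 18.03 to 71.1 (3.94-fold higher). Outside the list, *Lrg1*, a leucine-rich glycoprotein of the acute phase, was at 0.962, 180, 6.59 and 72.6 (2.48-fold lower, 2.26 to 2.72). The 3 fibrinogen chains moved together, with *Fga* at 0.577, 51.3, 0.1098 and 19.99, *Fgb* at 2.69, 116, 5.49 and 43.2 and *Fgg* at 5.29, 41.2, 5.27 and 20.1, and were 2.57-fold lower, 2.68-fold lower and 2.05-fold lower. The anti-apoptotic immediate early gene *Ier3* (13.9, 141, 11.2 and 58.4, 2.41-fold lower, 2.17 to 2.68) and the cystine transporter *Slc7a11* (3.56, 63.9, 5.82 and 27.01, 2.37-fold lower, 2.02 to 2.77) belonged to the dampened class as well.

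*Plat* is also a gene of vessel cells, and *S100a9* one of granulocytes. The 8 endothelial markers summed to 20.96 CPM in IL-1β β-cells and to 12.04 with both. Past 1.5-fold, 5 of the 8 were lower, like *Plat*, and 1 was higher. The 5 had 13 to 32 UMIs each with IL-1β. A UMI of *Plat* was found in 38.5% of 78 non-endocrine cells (at least 4 macrophage, endothelial or mesenchymal markers) of the IL-1β library and in 36.4% of 55 in that with both, against 9.88% and 3.51% of β-cells. The part of free RNA in the level of *Plat* was not tested. *Lrg1*, *Fgb*, *Defb1* and *Vldlr* had a UMI in 0% to 3.85% of those non-endocrine cells. *S100a9* had its 378 UMIs in 52 β-cells with IL-1β and its 180 UMIs in 15 with both, where *Ptprc*, a marker of all leukocytes, had 1 and 0 UMIs.

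On the side of lowered genes, IL-1β alone had set 807 genes, 9.19% of those tested for it, at least 2-fold below the untreated level. Addition of IFN-γ left 598 of these, relieved 121 (14.99%) and lowered 88 further (10.9%), where the same limits were passed by 6.33% (higher) and 12.6% (lower) of all genes tested for lowering. With all UMIs as the total 144 were left, 18 relieved and 38 lowered further, which turns that balance. *Mafa*, a β-cell transcription factor that drives insulin transcription, was at 1189.7, 100.1, 716 and 84.4. The glucose transporter *Slc2a2* was at 266, 19.8, 138 and 16.6. Both had lost most of their untreated level with IL-1β and had log2 ratios of -0.25 and -0.25 on addition of IFN-γ. *Pdx1*, at 267, 67.6, 159 and 52.02, and *Nkx6-1*, at 423, 178, 299.6 and 150.1, were left likewise. The 5 genes lowered most by IL-1β under the naming rule (*Gm4791*, *Hs3st6*, *Apoe*, *Gm11789* and *Gm46123*) had 2 to 20 UMIs in the IL-1β library, for example *Apoe*, apolipoprotein E, at 43.7, 2.34, 4.72 and 3.14, and its ratio of both to IL-1β had an interval of 0.707 to 2.63.

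Relief was clearest for *Nod1*, a sensor of bacterial peptidoglycan, which went through 32.03, 7.33, 41.9 and 38.3 (5.23-fold higher, 3.88 to 7.17), so that the level with both was back above the untreated level. *Cbs*, cystathionine β-synthase, was at 48.5, 11.4, 59.2 and 41.98 (3.67-fold higher, 2.87 to 4.74). The activin-type receptor *Acvr1c* was at 20.01, 4.25, 26.9 and 13.8 (3.25-fold higher, 2.16 to 5.04), and the nuclear factor *Nfix* was 2.87-fold higher, 2.13 to 3.93. Each of these 4 genes was higher with IFN-γ alone than untreated. *Try5*, a trypsinogen of acinar cells, had the largest ratio of the class, but 795 of its 1165 UMIs with both cytokines lay in 1 cell, and without the 3 β-cells of over 20 acinar UMIs it was at 4.104 and 5.78. Among the genes lowered further, *Trim9*, a ubiquitin ligase of neurons, was at 18.2, 4.84, 10.97 and 1.15 (4.2-fold lower, 2.07 to 9.21). The galanin receptor *Galr1* was at 36.6, 7.62, 38.7 and 2.09 (3.64-fold lower, 2.14 to 6.44). *Kctd12b*, *B3galt2*, a galactosyltransferase, and *Arhgap24* were 3.83-fold lower, 3.5-fold lower and 2.75-fold lower.

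Most genes that were lower with both had not been moved by IL-1β. Of the 933, IL-1β had raised 119 and lowered 34 by at least 2-fold, and 576 (61.7%) lay within 1.5-fold of untreated β-cells with each cytokine alone. These made up 10.95% of the 5258 tested genes that neither cytokine alone moved past that limit, close to the 11.1% of all tested genes. *G6pc2*, the glucose-6-phosphatase of islets that opposes glucokinase, was at 556, 813, 579 and 295 (2.76-fold lower, 2.64 to 2.89), thus above the untreated level with IL-1β and below it with both. *Il1r1*, the signaling receptor of IL-1β, was at 458, 356, 342 and 148 (2.401-fold lower, 2.25 to 2.57), while *Irak2* and *Myd88*, which act just below it, rose from 7.03 to 16.6 (2.37-fold higher) and from 32.2 to 67.9 (2.11-fold higher). *Irak2* was under 8 CPM with IL-1β, so the filter on the mean had fixed its direction. Of the other 14 tested members of the IL-1 receptor and proximal signaling list 1 was higher. *Irak1* stayed at 182 to 175, and 12 of the 15 tested members of that list were within 1.5-fold, near the 81.4% of all tested genes. With all UMIs as the total 4 of the 15 were lower.

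Of 18 tested endocrine transcription factors 7 were lower and 2 higher, against 11.1% and 7.48% of all tested genes, at a median log2 ratio of -0.25 against -0.11. With the ratios centred on the median, 5 were lower. *Rfx6*, a regulator of islet development, was at 73.1, 49.98, 74.4 and 20.9 (2.39-fold lower, 1.999 to 2.86) and *Pax6*, needed for hormone gene expression, at 382, 341, 387 and 184 (1.85-fold lower, 1.74 to 1.97). *Neurod1*, a partner in insulin gene transcription, was at 272, 463, 319 and 269 (1.72-fold lower, 1.63 to 1.81), back at its untreated level. *Isl1* was at 234, 282, 226 and 164 (1.72-fold lower, 1.61 to 1.84). *Foxa2* was at 103, 86.03, 109 and 50.98 (1.69-fold lower, 1.49 to 1.91). *Nkx2-2*, which IL-1β had already lowered, was at 158, 48.4, 132 and 30.1 (1.604-fold lower, 1.37 to 1.89) and inside the limit after centring. *Nr1d1*, a circadian repressor, was the list's largest rise (27.2, 18.03, 29.7 and 37.7, 2.09-fold higher, 1.699 to 2.59), and *Mlxipl*, the glucose-responsive factor ChREBP, was at 275, 38.1, 149 and 61.5 (1.62-fold higher, 1.39 to 1.88), though inside the limit with all UMIs as the total. Outside the lists, *Dach1*, a factor of islet development, was at 65.9, 41.8, 65.7 and 11.2 (3.73-fold lower, 2.98 to 4.702), and the tested genes of smallest ratio also included *Ankrd37* (48.8, 43.4, 44.2 and 12.4), *Rbm12b2* (11.7, 15.4, 11.1 and 4.82) and the transporter *Slc16a9* (22.7, 15.2, 18.9 and 5.23). All 4 were lower with both than with either cytokine alone. *Rbm12b2* and *Slc16a9* were under 8 CPM with both, so the filter on the mean had fixed their direction.

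Of 42 tested genes of glucose sensing, secretion and β-cell function, 36 were within 1.5-fold, near the 81.4% of all tested genes, 4 were higher and 2 were lower. The 2 were *G6pc2* and *Rab27a*, a GTPase of insulin granules (174, 109.8, 155 and 63.7, 1.72-fold lower, 1.55 to 1.92). *Pcsk1n*, an inhibitor of the prohormone convertase PC1/3, was the largest rise at 2706, 1245, 1723 and 2111 (1.696-fold higher, 1.65 to 1.74). *Chga*, the granule protein chromogranin A, was at 10364, 5105, 7183 and 6252 (log2 ratio 0.29) and *Wnt4*, a ligand of mature β-cells, at 727, 107, 425 and 167 (1.56-fold higher). With all UMIs as the total, none of the 42 was higher and 8 were lower, so the rises of *Pcsk1n* and *Wnt4* were not seen on that scale.

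Stress and death lists differed in how many members passed the limit. Of 29 genes of the unfolded protein and integrated stress response, 23 were within 1.5-fold, 2 were higher and 4 lower, near the shares of all tested genes (7.48% higher and 11.1% lower), and 2 to 7 were lower on the other scales. The higher ones were the factors *Atf3* (1.44, 9.38, 5.598 and 47.6, 5.08-fold higher, 3.902 to 6.705) and *Ddit3*, known as CHOP (117, 239, 224 and 415, 1.74-fold higher, 1.64 to 1.84). *Hspa5*, the main chaperone of the endoplasmic reticulum, stayed at 1691, 2341, 1969 and 2335. *Ern1*, which encodes the sensor IRE1α, was at 52.6, 74.5, 64.5 and 44.9 (1.66-fold lower, 1.46 to 1.89), inside the limit as a mean over cells. Of 14 immediate early genes 2 were higher and 5 lower, against the same shares of all tested genes. *Klf6* was at 20.5, 51.6, 28.5 and 119 (2.31-fold higher, 2.04 to 2.61), and *Jun*, a subunit of AP-1, was at 241, 290, 353 and 544 (1.87-fold higher, 1.78 to 1.98). Its partner *Fos* was at 64.5, 62.9, 94.5 and 32.97 (1.91-fold lower, 1.64 to 2.21). *Egr1*, a zinc finger factor, was at 141, 169.6, 263 and 74.6 (2.27-fold lower, 2.07 to 2.498), below its level with each cytokine alone. *Jund* stayed at 519 to 643. Among 21 tested genes of death receptors, caspases and the BCL2 family, 9 were higher and 1 was lower (6 higher with all UMIs as the total and 12 after centring). The filter on the mean had fixed 1 of the 21 as higher, and of the other 20 genes 8 were higher, against 7.48% of all tested genes. *Mlkl*, the executor of necroptosis, was at 1.73, 11.1, 22.4 and 46.7 (4.19-fold higher, 3.28 to 5.42). The pore former *Gsdmd* was at 2.89, 12.02, 8.56 and 42.1 (3.502-fold higher, 2.76 to 4.496). The inflammatory caspase *Casp4* was at 0.0962, 16.6, 0.439 and 33.1 (1.997-fold higher, 1.61 to 2.499), and *Bak1*, a pore former of mitochondria, at 9.91, 11.1, 18.1 and 29.1 (2.61-fold higher, 2.02 to 3.41). *Tnfrsf1a*, a TNF receptor, was 1.56-fold higher, 1.45 to 1.68, but inside the limit with all UMIs as the total. *Fas*, raised by IL-1β, was within the limit at 0.0962, 48.9, 1.76 and 68.8, and past it after centring or in thinned cells, and *Bcl2l2*, which protects cells, was lower (55.3, 59.6, 54.3 and 36.6, 1.63-fold lower, 1.41 to 1.88), though inside the limit as a mean over cells. Among 22 tested antioxidant genes 17 were within 1.5-fold, near the 81.4% of all tested genes, 4 were higher and 1 was lower. With all UMIs as the total 0 were higher and 3 lower. The 1 lower gene on the main scale, *Gclc*, was at 34.7, 46.3, 37.1 and 29.6 (1.56-fold lower, 1.33 to 1.84), though inside the limit after centring or in thinned cells. Heme oxygenase, *Hmox1*, was at 88.7, 218, 45.9 and 169. *Txnip*, which binds thioredoxin, was 1.58-fold higher, 1.397 to 1.79, and inside the limit with all UMIs as the total, as a mean over cells and in thinned cells. Of 85 ribosomal protein genes 2 were higher and 3 lower, below the shares of all tested genes.

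The effect of IFN-γ could be set against its effect without IL-1β, in libraries that the pairs do not share. Over 8056 genes tested in both pairs, IFN-γ alone set 411 (5.1%) at least 1.5-fold above untreated β-cells and 304 (3.77%) below, and on IL-1β it set 543 (6.74%) above and 867 (10.8%) below. Shared rises were 179, or 43.6% of the rises of IFN-γ alone and 32.97% of the rises on IL-1β, and among them were *Gbp2*, *Tap1*, *Cd274* and *Irf1*. In either pair a tested gene under 8 CPM without IFN-γ was bound to be higher, as *Gbp2* was against untreated cells. Shared rises fixed in this way were not counted, so the overlap holds an unknown number of them. Shared falls were 20, or 6.58% and 2.31% of the falls. Opposite calls were 24 of the rises with IFN-γ alone, which were falls on IL-1β, and 67 of its falls, which were rises on IL-1β. Of the 628 genes higher on IL-1β, 141 lay within 1.5-fold of untreated cells with each cytokine alone, or 2.68% of the 5258 such genes against 7.48% of all tested genes. They include *Enc1*, an actin-binding protein (19.1, 18.03, 27.99 and 64.2), *Cldn4*, a tight junction protein (65.3, 74.2, 65.6 and 189), and *Bbc3*, the death inducer PUMA (9.23, 7.33, 11.7 and 15.5). These 3 were 3.56-fold higher, 2.55-fold higher and 2.11-fold higher with both than with IL-1β. *Bbc3* was under 8 CPM with IL-1β, so the filter on the mean had fixed its direction.

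Shares of β-cells with a UMI were compared after each cell had been thinned to 4000 UMIs, which left out 74 shallower β-cells with IL-1β and 31 with both. The draws included hormone UMIs, so the shares are not on the non-hormone scale. Hormones held 28.7% of β-cell UMIs with IL-1β, 38.2% with both and 47.7% without treatment. A thinned cell thus kept fewer other UMIs with both than with IL-1β, which lowers the shares with both. *Nos2* was detected in 22.4% (19.9 to 25.05) with IL-1β and 61.03% (58.2 to 63.8) with both. Without thinning, the shares were 28.9% and 70.9%. *Cxcl10* was detected in 9.44% (7.74 to 11.4) with IL-1β and 79.1% (76.7 to 81.3) with both. *Icam1* was in 30.9% (28.1 to 33.8) with IL-1β and 57.3% (54.4 to 60.1) with both. *Gbp2* was in 50.5% (47.5 to 53.6) with IL-1β and 88.3% (86.4 to 90.1) with both. For *Defb1* the shares were 75.2% (72.5 to 77.8) with IL-1β and 77.04% (74.6 to 79.4) with both, and for *Sod2* they were 88.7% (86.6 to 90.5) with IL-1β and 88.2% (86.3 to 89.99) with both, with intervals that overlapped. The dampened genes were found in fewer cells, such as *Lrg1* in 15.6% (13.5 to 17.98) with IL-1β and 8.01% (6.55 to 9.67) with both. *Fgb* was in 8.48% (6.87 to 10.3) with IL-1β and 3.19% (2.28 to 4.33) with both. *Vldlr* was in 40.1% (37.2 to 43.2) with IL-1β and 13.2% (11.4 to 15.3) with both. Outside that class, *G6pc2* was in 75.98% (73.3 to 78.5) with IL-1β and 44.8% (41.96 to 47.6) with both. *Mafa* was in 16.4% (14.2 to 18.8) with IL-1β and 17.3% (15.2 to 19.6) with both, against 72.2% of untreated β-cells.

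**Figure D5:**
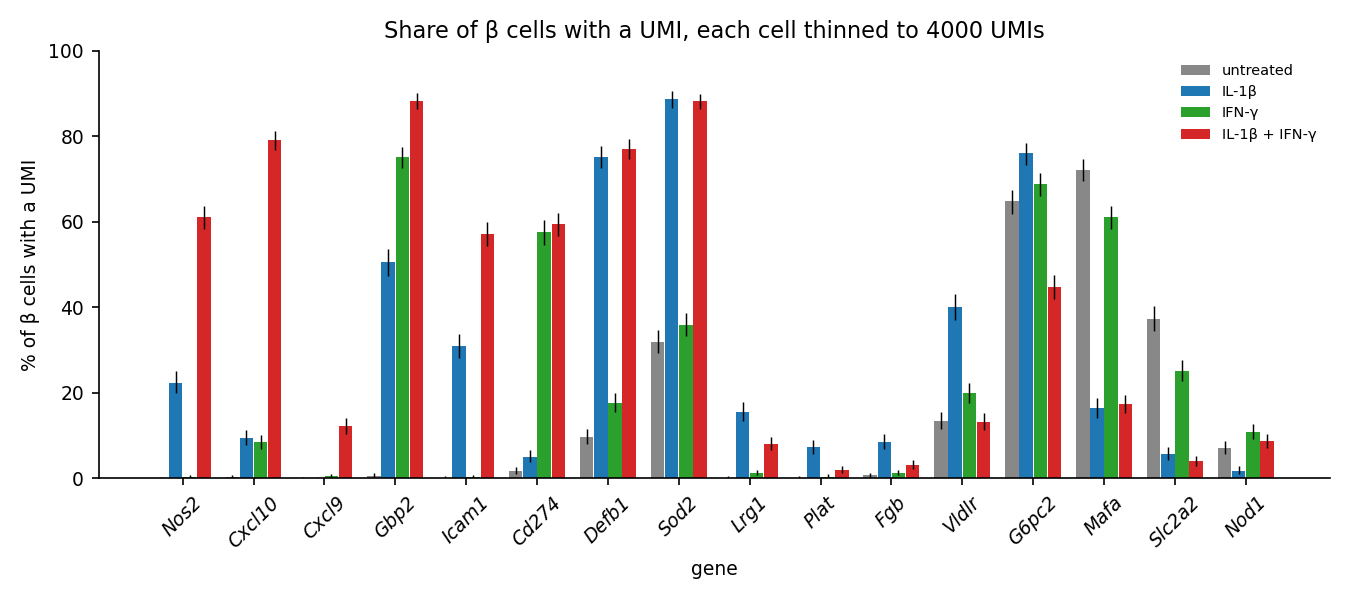
Percent of β-cells with at least 1 UMI (vertical axis) for 16 genes in the 4 libraries, after thinning each cell to 4000 UMIs (hormone UMIs included), with exact 95% binomial intervals. *Nos2* and *Cxcl10* reach 61.03% and 79.1% with both cytokines, *Defb1* and *Sod2* have bars of similar height with IL-1β and with both, and *Lrg1*, *Fgb* and *Vldlr* have their highest bars with IL-1β.

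Non-endocrine cells of the both-cytokine library (55 cells, median 9484 UMIs) were set beside the β-cells, though which of these genes they make themselves was not tested. *Nos2* had a UMI in 10.9% of them, without thinning, against 70.9% of β-cells (median 12209 UMIs), and *Defb1* in 1.82% against 89.2%. *Cxcl9* had one in 74.5% of them and in 16.02% of β-cells, and *Cxcl10* in 72.7% and 83.4%. The share of β-cells with *Cxcl9* lies below that of the other cells, and how much of it was free RNA was not tested. Summed over a cell, the guanylate-binding protein list had a median of 2 UMIs per thinned β-cell with IL-1β (10th to 90th percentile, 0 to 5) and 15 with both (4 to 29), so the rise was in most cells. The chemokine list had 1 (0 to 7) and 9 (0 to 35). Endocrine transcription factors had 7 (3 to 12) and 4 (1 to 8), with 8 (4 to 14) in IFN-γ cells. These medians, like the shares, come from draws that included hormone UMIs. Within each library the spread across β-cells was wide, and for chemokines 10.6% of β-cells with both cytokines had none after thinning.

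Markers of other cells moved in part with the comparison. The 7 acinar markers summed to 16.4 CPM with IL-1β and 468 with both (118 untreated and 106 with IFN-γ), 6 of the 7 were higher and *Prss1* was at 0 in both libraries. *Ctrb1*, chymotrypsinogen, was the most abundant of them. Of the 4468 acinar UMIs with both cytokines 2483 lay in 1 β-cell, and 3 β-cells had more than 20. Without cells of over 20 acinar UMIs, *Ctrb1* stood at 8.94 with IL-1β and 11.8 with both, and 616 genes were higher and 925 lower. The 10 macrophage markers summed to 72.4 with IL-1β and 241 with both, most of it *C1qa* (136, 51.1, 61.8 and 222), which was in 218 of 1123 and 671 of 1255 β-cells. *Ptprc*, *Csf1r*, *Adgre1*, *C1qb*, *C1qc* and *Tyrobp* had 0 to 2 UMIs in each of these libraries. Of the other markers, *Cd68* had 109 and 121 UMIs, *Fcer1g* 31 and 49, and *Lyz2* 1 and 6, and of the 10 only *C1qa* and *Lyz2* were past 1.5-fold, both higher. *Cd74*, the invariant chain of MHC class II, was at 15.5, 12.9, 8.67 and 63.5 (4.93-fold higher, 3.93 to 6.23), in 71 and 299 β-cells. Without treatment, 66 of the 161 UMIs of *Cd74* lay in 1 β-cell. Ductal markers summed to 222 and 301, and mesenchymal markers to 1.47 and 0.628. The T, B and NK cell markers summed to 3.08 and 5.02, with 5 of 6 at 0 in both libraries.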

How the data were processed

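Single-cell 3′ RNA sequencing libraries of the 4 conditions were analysed from the UMI count matrices deposited by the authors, who made the counts with Cell Ranger on the mm10 genome according to the submitters' processing notes (matrix headers give software version 3.0.0). The labels and the study's methods name different versions of the library kit. Deposited counts were whole numbers, not normalized. Cells were chosen as stated in the report, and doublets were not removed for the main values (Scrublet was an alternative). UMIs of β-cells were summed per library and divided by the total without the 7 hormone genes (*Ins1*, *Ins2*, *Iapp*, *Gcg*, *Sst*, *Ppy*, *Pyy*). Genes with a mean of at least 10 CPM in the compared libraries were kept, a change was called at 1.5-fold, and an IL-1β effect at 2-fold. The 1.5-fold limit carries no p-value. A gene at 0 in 1 library was set to a floor of 3 UMIs there. Named genes were the largest ratios, the extremes of each IL-1β class and the extremes of each gene list. Members and lists were chosen with earlier results of these data known. Alternatives were other totals, limits, filters, thinning, a mean over cells and cell selections. The code was tested on simulated data. Software was pandas 2.3.3, scipy 1.17.1 and numpy 2.4.6 under Python 3.11.15. Some genes are not reported here.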

Additional observations from a re-analysis of the deposited data

Results flagged for a closer look

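For 10 named genes the ratio with both cytokines against IL-1β and the ratio with IFN-γ against no treatment pointed in opposite directions, each past 1.5-fold. The difference was not tested, since each condition was 1 library. *Olfm1*, a secreted olfactomedin, had log2 ratios of -1.50 on IL-1β and 0.62 alone, and *Egr1* of -1.18 and 0.90. In the other 8 the ratio was above 0 on IL-1β. It was 0.93 for *Cxcl16* (-0.66 with IFN-γ alone), 2.30 for *Cd74* (-0.84), 0.76 for *Pcsk1n* (-0.65), 0.69 for *Mlxipl* (-0.88), 0.64 for *Wnt4* (-0.77) and 2.12 for *C1qa* (-1.14). The untreated level of *Cd74* leans on few cells, with 66 of its 161 UMIs in 1 β-cell. A *Cd74* UMI was in 24 untreated β-cells (2.05%) and in 61 with IFN-γ alone (4.86%), so the share of cells did not fall. The predicted genes *Gm4791*, at 0.84 (-1.93), and *Gm11789*, at 0.68 (-0.98), had 2 and 8 UMIs with IL-1β and 5 and 18 with both, and the ratio intervals spanned 1 (0.292 to 18.8 and 0.665 to 4.27). With all UMIs as the total the ratios on IL-1β of *Pcsk1n* (0.56), *Mlxipl* (0.49), *Wnt4* (0.44) and *Gm11789* (0.48) were inside the limit.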

How the results depend on the processing

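No paired analysis was possible because each condition was 1 library and no test was run. With all UMIs as the total, 316 genes were higher and 1743 lower with both cytokines, 815 IL-1β-raised genes were left and 446 dampened, and of the IL-1β-lowered genes 38 were lowered further, 144 were left and 18 relieved. Centring on the median gave 595 lower genes. A minimum mean of 3 CPM gave 1540 lower, 203 dampened, 168 lowered further and 220 relieved. A minimum of 30 gave 383 higher, 435 lower, 68 dampened, 35 lowered further, 283 lowered and left, and 49 relieved. A limit of 2-fold gave 259 higher, 162 lower, 96 boosted, 42 dampened, 25 lowered further and 35 relieved. With effects chosen from the both-cytokine and untreated libraries, 331 were boosted, 42 dampened, 348 lowered further and 39 relieved, but this choice uses the both-cytokine library that the ratio uses too, which tilts the classes toward boosted and lowered further. At a 20% mitochondrial limit *Gm4791*, with 2 and 5 UMIs in the main cells, had a log2 ratio of -0.0792. The cause of the other moves was not tested. The exclusion of cells with over 20 acinar UMIs, chosen after seeing the data, took *Try5* inside the limit. The libraries cannot tell a cytokine effect from a difference between samples of islets, and intervals do not cover it. Depth limits genes near the floor of 0.4397 CPM with IL-1β and 0.314 with both.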
